A study of Mus musculus with 6 samples.

Results

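The E proteins and their Id inhibitors were followed in 6 bulk RNA-seq libraries of mouse bone marrow cells, which the labels call LT-HSCs, that is, long-term repopulating blood stem cells. The genes were taken by name: the E protein genes Tcf3, Tcf4 and Tcf12 and the inhibitor genes Id1, Id2 and Id3, 6 of the 55487 genes in the deposited table. All 6 passed the filter on low counts, which kept 15419 genes. The groups were Mmrn1-high (n = 3 libraries) and Mmrn1-low (n = 3 libraries), named for the status of Mmrn1, which encodes multimerin 1, a platelet and endothelial protein. Every library carried the genotype that the labels call Mmrn1-GFP (green fluorescent protein). The sources used here give no age or sex of the mice, no construction of the GFP allele and no sorting gates. They also do not say whether the libraries came from separate or pooled animals. The p-values set the group difference against the spread between these libraries only, and that spread may be technical.

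E proteins are basic helix-loop-helix (bHLH) transcription factors that bind the E box, a short DNA element, as dimers with each other or with tissue-restricted bHLH partners such as Tal1. Id proteins keep the helix-loop-helix that makes dimers but lack the basic region that touches DNA, so a dimer of an Id and an E protein cannot bind. In mouse blood, E proteins drive lymphoid commitment, and the balance of Id to E protein bears on B, T, natural killer and dendritic cell fates and on stem cell cycling. Tcf3 encodes E2A, whose splice forms E12 and E47 differ in the bHLH exon, Tcf4 encodes E2-2 and Tcf12 encodes HEB. Despite their symbols, these genes are unrelated to Tcf7, the Wnt pathway factor.

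Promoter windows are shown because the data concern factors that act through E boxes and because Id3, Tcf3 and Tcf12 differed between the groups while Id2 did not pass the test. The windows are from RefSeq (GRCm38.p6), run 5′ to 3′ from 250 bases before to 50 bases after an annotated transcript start, and have every E box (CANNTG, which reads the same on both strands) in capitals. The table used here matched 4 members. No window is shown for Id1 and Tcf4. The 4 are Id3 (chr4:136143572-136143871, plus strand), Id2 (chr12:25096043-25096342, minus strand), Tcf3 (chr10:80433586-80433885, minus strand) and the outermost of 3 windows of Tcf12 (chr9:72111770-72112069, minus strand).
Id3: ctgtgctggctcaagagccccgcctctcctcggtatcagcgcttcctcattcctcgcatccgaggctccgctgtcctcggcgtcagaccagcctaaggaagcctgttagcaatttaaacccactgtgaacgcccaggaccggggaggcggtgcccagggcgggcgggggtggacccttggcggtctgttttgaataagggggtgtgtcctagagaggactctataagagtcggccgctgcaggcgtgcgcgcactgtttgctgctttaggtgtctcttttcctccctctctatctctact
Id2: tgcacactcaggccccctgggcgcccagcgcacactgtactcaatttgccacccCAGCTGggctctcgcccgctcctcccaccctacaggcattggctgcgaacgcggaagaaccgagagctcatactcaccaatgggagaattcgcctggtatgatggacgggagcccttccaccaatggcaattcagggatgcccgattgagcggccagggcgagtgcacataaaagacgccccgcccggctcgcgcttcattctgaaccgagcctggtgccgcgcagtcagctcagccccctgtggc
Tcf3: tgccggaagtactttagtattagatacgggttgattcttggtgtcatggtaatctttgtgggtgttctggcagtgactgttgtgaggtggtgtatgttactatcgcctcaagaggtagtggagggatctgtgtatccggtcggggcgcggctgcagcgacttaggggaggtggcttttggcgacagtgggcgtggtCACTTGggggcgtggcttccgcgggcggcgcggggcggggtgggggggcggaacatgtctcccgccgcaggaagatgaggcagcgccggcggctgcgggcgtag
Tcf12: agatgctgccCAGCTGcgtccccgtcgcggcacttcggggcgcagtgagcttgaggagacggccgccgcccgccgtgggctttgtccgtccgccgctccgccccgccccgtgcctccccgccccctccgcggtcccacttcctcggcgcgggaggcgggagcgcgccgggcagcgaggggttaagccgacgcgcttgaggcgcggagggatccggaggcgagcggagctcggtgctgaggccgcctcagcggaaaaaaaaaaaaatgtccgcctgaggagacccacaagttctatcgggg
The Id3 window held 0 E boxes. The Id2 window held CAGCTG, 196 bases before the start, the Tcf3 window CACTTG, 54 bases before the start, and the Tcf12 window CAGCTG, 240 bases before the start. Of 32851 such windows of all genes, 72.3% held CANNTG and 16.3% held its form CAGCTG, so these matches are common. An Egr element, GCGTGGGCG on either strand, was in none of the 4 windows and in 0.612% of all windows. The element GGCGCC, which BMP-activated Smads can bind and which reads the same on both strands, was in the Id2 window, 231 bases before the start, and in 11.9% of all windows.

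Between 11595104 and 30909990 counts fell on genes per library, and 3 counts equalled 0.0925 to 0.245 CPM (counts relative to library size, scaled with edgeR's TMM factors). Mmrn1 itself was 1.76-fold higher in Mmrn1-high cells (10.0 ± 1.33 CPM, against 5.69 ± 0.112 CPM in Mmrn1-low cells; SD, n = 3 each). Of 14 genes used to gate or mark stem cells, 13 were higher in Mmrn1-high cells, beside 30.7% of all genes tested. Hoxb5 missed the threshold (log2 fold change 0.67 ± 0.41 SE). The list mixes genes for proteins that LT-HSC gates require with genes for proteins that they exclude, so its count has no single reading. Common gates for LT-HSCs take cells without Flt3 and Cd48 protein and with Slamf1 protein. Flt3 RNA was at 546 ± 4.32 CPM in Mmrn1-high and 156 ± 1.38 CPM in Mmrn1-low cells. Cd48 was at 139 ± 3.35 and 97.7 ± 5.15 CPM and Slamf1 at 4.92 ± 0.403 and 1.54 ± 0.377 CPM, each with Mmrn1-high first. Flt3 and Cd48 RNA was thus present in both groups, though such gates exclude the proteins. Of other genes in the list, again with Mmrn1-high first, Kit was at 395 ± 5.17 and 329 ± 5.54 CPM. Ly6a was at 61.5 ± 2.16 and 16.2 ± 1.05 CPM, and Hlf at 110 ± 23.3 and 42.1 ± 4.88 CPM. No reference RNA level for cells from such gates was at hand, so a departure from them cannot be judged. All 14 genes passed the filter on low counts. Surface protein was not measured, and whether the label holds was not tested. Over all genes tested with edgeR's quasi-likelihood test, 9438 of 15419 (61.2%) had a Benjamini-Hochberg adjusted p below 0.05 and count as called, 30.7% higher and 30.5% lower in Mmrn1-high cells, and the median log2 fold change was 0.0054. With library size alone in place of TMM, fold changes moved up by a median of 0.15 and 66.0% of the calls were higher and 34.0% lower, so every direction below is relative to the TMM scaling.

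All 3 E protein genes and Id3 were higher in Mmrn1-high cells, while Id1 and Id2 missed the threshold. That is 4 of 6 members called, beside 61.2% of all genes tested in either direction and 30.7% in this direction, so the share of members called in either direction is near the background. The 4 called genes were also the ones whose groups did not overlap, which held for 67.8% of all genes tested, and for 34.1% with the Mmrn1-high libraries above. The rises ranged from 1.16-fold for Tcf3 to 5.98-fold for Id3.

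**Figure D1:**
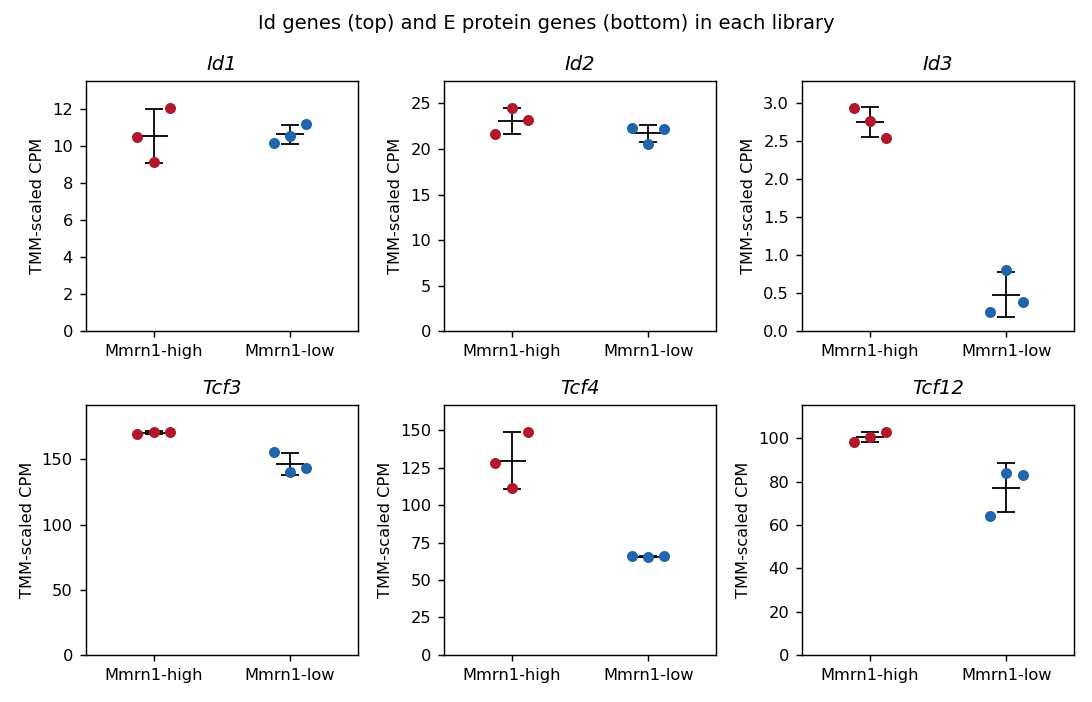
TMM-scaled CPM (vertical axes, from 0) of the Id genes (top) and E protein genes (bottom) in each Mmrn1-high (red) and Mmrn1-low (blue) library; points are libraries, and black marks are means ± SD of 3. For Id3 and the E protein genes every Mmrn1-high library lies above every Mmrn1-low library, and for Id1 and Id2 the groups overlap.

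Among the E protein genes, Tcf4 changed most. Tcf4 (ENSMUSG00000053477, GRCm38 chromosome 18, 69343356 to 69689079, plus strand) is the E protein gene that plasmacytoid dendritic cells depend on. It had 128, 112 and 149 CPM in the Mmrn1-high libraries, against 65.7, 65.2 and 66.0 CPM in the Mmrn1-low libraries. The Mmrn1-low libraries were nearly alike, and the Mmrn1-high libraries were all higher but spread widely. The log2 fold change was 0.98 ± 0.10 SE, or 1.97-fold, with an edgeR quasi-likelihood adjusted p of 2.52e-04, larger in size than that of 82.7% of all genes tested.

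Tcf12 (ENSMUSG00000032228, chromosome 9, 71842688 to 72111871, minus strand), which pairs with E2A in developing T cells, had 98.4, 100.4 and 103 CPM in the Mmrn1-high libraries, against 64.2, 84.2 and 83.2 CPM in the Mmrn1-low libraries. Here the Mmrn1-high libraries were close together, and Mmrn1-low replicate 1 lay below the other Mmrn1-low libraries. The log2 fold change was 0.38 ± 0.10 SE (1.30-fold; edgeR adjusted p = 0.0191). Without Mmrn1-high replicate 3 the call was lost (edgeR adjusted p = 0.0635, over a range of 0.00103 to 0.0635 in the alternatives), and without Mmrn1-low replicate 1 the log2 fold change was 0.27.

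Tcf3 (ENSMUSG00000020167, chromosome 10, 80409514 to 80433647, minus strand), the E protein gene that B cell development depends on first, had 169, 170.7 and 171 CPM in the Mmrn1-high libraries, against 156, 140.4 and 143 CPM in the Mmrn1-low libraries. The groups did not overlap, and the difference was the smallest of the 4 called. Its log2 fold change was 0.22 ± 0.04 SE (1.16-fold; edgeR adjusted p = 0.00253), below the median absolute value of 0.57 among called genes. The gene has 12 protein-coding transcripts in the GENCODE M21 annotation, and counts per gene do not separate E12 from E47.

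Id3 (ENSMUSG00000007872, chromosome 4, 136143497 to 136145755, plus strand), which restrains E2A downstream of antigen receptors in lymphocytes, was the least expressed member. It had 36, 90 and 38 counts, or 2.94, 2.78 and 2.55 CPM, in the Mmrn1-high libraries, against 4, 11 and 11 counts, or 0.254, 0.812 and 0.383 CPM, in the Mmrn1-low libraries. All Mmrn1-high libraries were more than 3 times as high as any Mmrn1-low library. The log2 fold change was 2.58 ± 0.32 SE, or 5.98-fold, with a 95% interval of 1.85 to 3.31 on the log2 scale (edgeR adjusted p = 1.87e-04), larger in size than that of 99.0% of all genes tested. Its level was below that of 87.5% of the genes tested, and the interval is the widest of the members.

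Id1 and Id2 gave no call. Id1 (ENSMUSG00000042745, chromosome 2, 152736251 to 152737410, plus strand), a BMP-induced gene linked to stem cell maintenance and to endothelium, had 10.5, 9.13 and 12.1 CPM in the Mmrn1-high libraries, against 10.2, 10.6 and 11.2 CPM in the Mmrn1-low libraries. The Mmrn1-high libraries spanned the whole Mmrn1-low range. Its log2 fold change was −0.02 ± 0.12 SE (edgeR adjusted p = 0.878), and the 95% interval of the fold ran from 0.814 to 1.19. Id2 (ENSMUSG00000020644, chromosome 12, 25093799 to 25097140, minus strand), which natural killer and other innate lymphoid cells require, had 21.7, 24.5 and 23.2 CPM in the Mmrn1-high libraries, against 22.3, 20.6 and 22.2 CPM in the Mmrn1-low libraries. The groups overlapped through Mmrn1-high replicate 1. Its log2 fold change was 0.09 ± 0.07 SE (edgeR adjusted p = 0.302), with a 95% interval of the fold of 0.949 to 1.20. Id2 was called higher with library size alone (log2 fold change 0.24; edgeR adjusted p = 0.0191). Id4, the remaining gene of the family, had 2, 4 and 2 counts in the Mmrn1-high libraries, against 0, 0 and 2 in the Mmrn1-low libraries, and was too low to test.

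**Figure D2:**
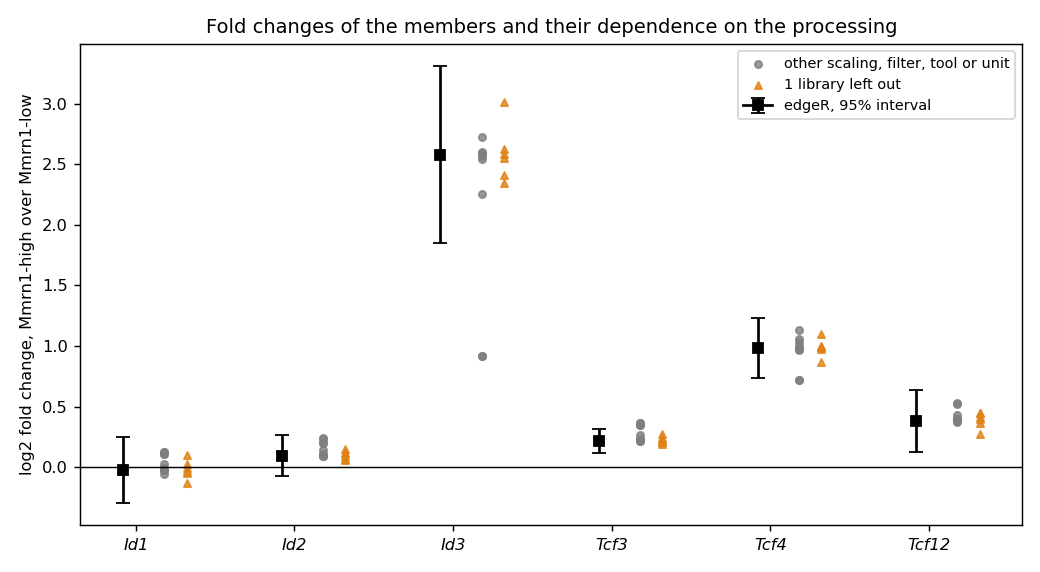
Log2 fold change of each member, Mmrn1-high over Mmrn1-low (vertical axis), from edgeR with its 95% interval (black squares), with another scaling, filter, tool or unit (grey circles) and with 1 library left out (orange triangles). Id3 and the E protein genes stay above 0, the Id1 values fall on both sides of 0, and the low grey points of Id3 at 0.92 come from log2(FPKM + 1), a scale that understates the change of low genes.

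The order of levels within a library needs a correction for gene length, and the result depended on which length was used. The authors' FPKM divides by the summed length of all distinct annotated exons, so that overlapping exons count more than once. For Id1 that length was 2094 bases, longer than the gene's span of 1160 bases. For Tcf4, with 62 annotated transcripts, it was 51340 bases, against 27382 bases of merged exons and a median protein-coding transcript of 1842 bases. On the authors' scale the order was the same in both groups. Tcf3 led at 19.0 ± 0.0610 FPKM in Mmrn1-high and 14.7 ± 0.797 FPKM in Mmrn1-low cells. Id2 (5.88 ± 0.347 and 4.98 ± 0.221 FPKM) and Id1 (5.29 ± 0.733 and 4.82 ± 0.248 FPKM) came next, with Mmrn1-high before Mmrn1-low in each pair, and did not differ from each other beyond their spread. Tcf12 (3.39 ± 0.0693 and 2.35 ± 0.348 FPKM), Tcf4 (2.66 ± 0.381 and 1.21 ± 0.0087 FPKM) and Id3 (1.26 ± 0.0952 and 0.200 ± 0.121 FPKM) followed, with no overlap between neighbours.

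Per kilobase of merged exons Tcf3 again led and Tcf12, Tcf4 and Id3 again followed the Id1 and Id2 pair, which overlapped each other. Per kilobase of the median protein-coding transcript all 3 E protein genes were above every Id gene. Tcf4 was then the highest in Mmrn1-high cells, at 70.5 ± 10.2 CPM per kilobase, against 35.6 ± 0.212 in Mmrn1-low cells, where it ranked below Tcf3 and overlapped with Tcf12. Tcf3 being above Id1 and Id2, and Id3 being the lowest, held on all 3 scales, whereas the place of Tcf4 and Tcf12 relative to Id1 and Id2 did not.

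**Figure D3:**
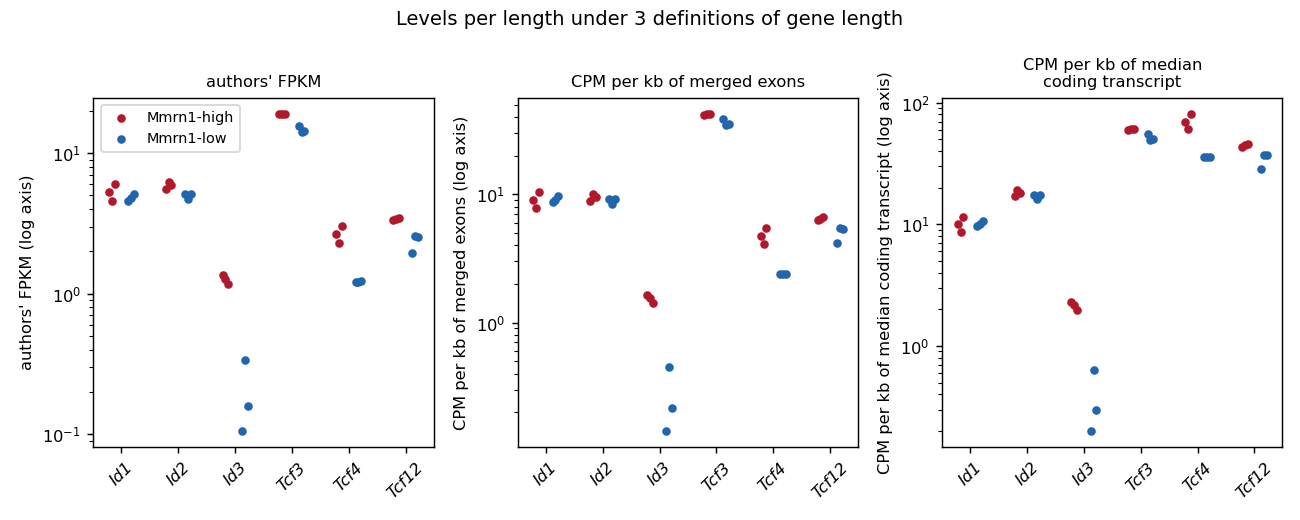
Level of each member per library on a log axis, as the authors' FPKM (left), CPM per kilobase of merged exons (middle) and CPM per kilobase of the median protein-coding transcript (right), for Mmrn1-high (red) and Mmrn1-low (blue) libraries. Tcf4 and Tcf12 lie below Id1 and Id2 in the left and middle panels and above them in the right panel, and Id3 is lowest in each.

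A ratio of Id to E transcripts within a library does not depend on how libraries are scaled. As summed FPKM, Id1, Id2 and Id3 over Tcf3, Tcf4 and Tcf12 gave 0.489, 0.4898 and 0.512 in the Mmrn1-high libraries, against 0.521, 0.551 and 0.5695 in the Mmrn1-low libraries. The groups did not overlap, and the ratio in Mmrn1-high cells was 0.908 of that in Mmrn1-low cells. The sum of the E protein genes was 1.37 times as high in Mmrn1-high cells (24.6 to 25.5 FPKM, against 17.9 to 18.8 FPKM) and that of the Id genes 1.24 times (12.1 to 13.1 FPKM, against 9.79 to 10.4 FPKM), on this scale without TMM. With lengths of the median coding transcript, the ratio was 0.174 ± 0.00742 in Mmrn1-high and 0.227 ± 0.00609 in Mmrn1-low cells. The geometric mean of FPKM, which gives the 3 genes of each sum equal weight, turned the direction, with 0.612 ± 0.0194 in Mmrn1-high and 0.472 ± 0.0786 in Mmrn1-low cells, because Id3 then weighs as much as Id1 and Id2. No test is given for these sums over chosen genes.

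**Figure D4:**
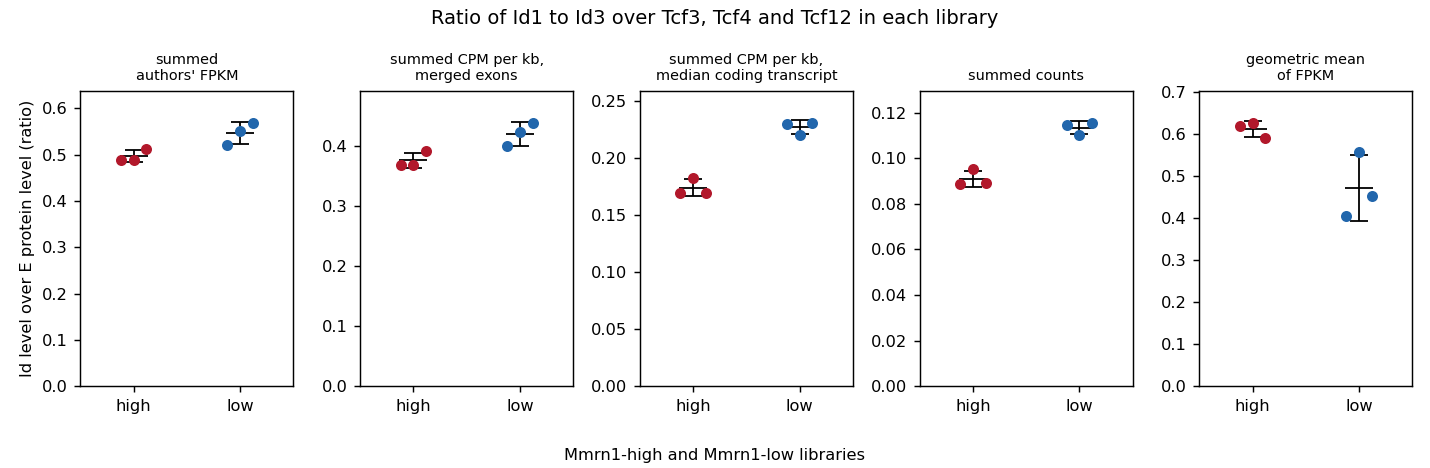
Ratio of the Id level to the E protein level in each Mmrn1-high (red, left) and Mmrn1-low (blue, right) library, with mean ± SD of 3 and axes from 0, for 5 ways of adding up the genes. The Mmrn1-high libraries are lower for the 4 kinds of sum and higher for the geometric mean of FPKM.

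The shares of the genes within each sum were also compared, first on the authors' FPKM. Tcf4 made up 9.27% to 11.9% of the summed E protein FPKM in the Mmrn1-high libraries, against 6.45% to 6.74% in the Mmrn1-low libraries, and Tcf3 74.5% to 77.0%, against 78.9% to 83.2%. Tcf12 overlapped, at 13.4% to 13.7% in the Mmrn1-high and 10.4% to 14.3% in the Mmrn1-low libraries. Id3 made up 8.90% to 11.1% of the summed Id FPKM in the Mmrn1-high libraries, against 1.07% to 3.41% in the Mmrn1-low libraries. Per kilobase of the median protein-coding transcript the shares were different, with Tcf4, Tcf3 and Id3 differing between the groups in the same directions and Tcf12 again overlapping. Tcf4 was then 40.1% ± 3.30 of the E protein sum in Mmrn1-high and 29.3% ± 0.544 in Mmrn1-low cells, Tcf3 34.4% ± 2.05 and 42.6% ± 3.13, and Id3 7.10% ± 0.790 and 1.38% ± 0.865 of the Id sum, each with Mmrn1-high first (SD, n = 3 each).

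The lists used from here on were written with earlier results of these data known, so their shares beside those of all genes are descriptive only. Partners of the E proteins moved in both directions. Of 16 tissue-restricted bHLH genes, 3 passed the filter and 10 had no count in any library. Tal1, the stem cell and erythroid partner of E2A, was higher in Mmrn1-high cells (132 ± 3.04 CPM, against 61.5 ± 15.0 CPM; log2 fold change 1.10 ± 0.19 SE). Its close relative Lyl1 was lower (111 ± 1.95 CPM, against 166 ± 5.09 CPM; −0.57 ± 0.04 SE), as was Bhlha15, a factor of secretory cells such as plasma cells (2.23 ± 0.0519 CPM, against 10.6 ± 0.894 CPM; −2.25 ± 0.12 SE). Tal1 and Lyl1 thus moved in opposite directions.

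The LIM, GATA and SSBP proteins join Tal1 and E protein dimers into larger complexes. Of 10 such genes, all tested, 6 were higher and 1 lower in Mmrn1-high cells (70.0% called, against 61.2% of all genes), with a median log2 fold change of 0.39. The bridging factor Ldb1 (0.63 ± 0.03 SE), its stabiliser Ssbp2 (0.94 ± 0.07 SE) and Gata3 (1.93 ± 0.16 SE), a T and innate lymphoid factor, had the smallest p. Lmo1 was lower (−0.64 ± 0.11 SE). Of 12 cofactors that E proteins or their complexes recruit, 11 were tested, with 4 higher and 2 lower (54.5% called) and a median of 0.07. The corepressor Cbfa2t3 (0.81 ± 0.12 SE), the acetyltransferase genes Crebbp (0.40 ± 0.03 SE) and Kat2b (0.22 ± 0.05 SE) and the deacetylase gene Hdac2 (0.14 ± 0.05 SE) were higher, and Rcor1 (−0.44 ± 0.03 SE) and Kat2a (−0.12 ± 0.04 SE) lower. The calls of Kat2a and Hdac2 were lost in 14 and 7 of 17 alternatives, and that of Rcor1 was kept in all 17. With library size alone the cofactor counts were 7 higher and 1 lower.

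Genes reported as targets of E proteins were mostly higher in Mmrn1-high cells. As these lists too were written with earlier results known, a share above that of all genes is not a test of the targets. Of 23 lymphoid targets of E2A and HEB, 20 were tested, with 16 higher and 1 lower (85.0% called, against 61.2% of all genes) and a median log2 fold change of 1.35, against 0.0054 for all genes. Dntt, the terminal transferase of lymphoid progenitors (2.44 ± 0.03 SE), Il7r, the interleukin 7 receptor gene (2.59 ± 0.18 SE), and Foxo1 (1.31 ± 0.10 SE) had the smallest p. The lower member was Gfi1, a repressor with roles in granulocytes, lymphocytes and stem cells (−2.05 ± 0.04 SE). With the filter of 5 CPM 6 targets were called higher, and on filtered FPKM 9. Of 15 genes reported to depend on Tcf4 in plasmacytoid dendritic cells, 14 were tested, with 11 higher (78.6% called; 7 on filtered FPKM) and a median of 1.004. Among them were Bcl11a (0.95 ± 0.04 SE), a partner of Tcf4 in those cells, Pld4 (1.06 ± 0.06 SE) and Ly6d (1.99 ± 0.12 SE). Spib (0.61 ± 0.25 SE), Tlr7 (0.85 ± 0.32 SE) and Irf8 missed the threshold, Irf8 with a wide spread (135 ± 56.4 CPM, against 114 ± 40.2 CPM). These genes also have other regulators.

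Markers of the cell types in which E and Id genes are high moved as well. Beside the counts that follow, 30.7% of all genes tested were called higher and 30.5% lower. In bulk libraries, fewer cells of a type and less RNA per cell cannot be told apart. Of 9 plasmacytoid dendritic cell markers, 8 were tested, with 6 higher (2 with the filter of 5 CPM or on filtered FPKM) and Ly6c2 lower, and the list summed to 309 to 397 CPM in Mmrn1-high and 528 to 664 CPM in Mmrn1-low libraries, most of it Ly6c2 and Irf8. The list shares 7 of its 9 genes with the 15 Tcf4 targets, among them 5 of its 6 higher genes (Siglech, Bst2, Ccr9, Pacsin1 and Tlr9), so the counts of the lists are not separate observations. Of 12 B cell markers, 6 of them also lymphoid targets, 9 were tested and 6 were higher, 5 of which are such targets (1 higher with the filter of 5 CPM and 3 on filtered FPKM), and the list summed to 351 to 364 CPM in Mmrn1-high and 345 to 356 CPM in Mmrn1-low libraries, most of it Ighm. Of 9 innate lymphoid cell markers, the 6 tested were all higher by edgeR (2 on filtered FPKM), with sums of 50.6 to 58.5 CPM in Mmrn1-high and 26.9 to 30.3 CPM in Mmrn1-low libraries. Of 15 T and natural killer cell markers, 9 were tested, with 7 higher (2 with the filter of 5 CPM and 4 on filtered FPKM) and Nkg7 lower, and sums of 161 to 164 CPM in Mmrn1-high and 467 to 473 CPM in Mmrn1-low libraries, most of it Nkg7. Of 12 endothelial markers, 10 were tested, with 6 higher and Flt1, Stab1 and Stab2 lower (1 lower with the filter of 5 CPM or on filtered FPKM), and sums of 255 to 270 CPM in Mmrn1-high and 154 to 163 CPM in Mmrn1-low libraries, with the defining gene Cdh5 near 0 in both (0.550 ± 0.248 CPM, against 0.787 ± 0.163 CPM). Of 10 macrophage markers tested, Cd68 and Csf1r were higher and 8 were lower, and the list summed to 149 to 159 CPM in Mmrn1-high and 249 to 258 CPM in Mmrn1-low libraries. In Mmrn1-high libraries most of that sum was Csf1r (104 ± 5.05 CPM), and the median log2 fold change of the tested markers was −3.32. Of 8 plasma cell markers tested, Sdc1 was higher, Igkc, Derl3, Xbp1 and Mzb1 were lower (2 lower with the filter of 5 CPM) and 3 missed the threshold, and the list summed to 382 to 424 CPM in Mmrn1-high and 829 to 954 CPM in Mmrn1-low libraries. None of the markers in these lists was at 0 in all 6 libraries, though several had only a few counts over all libraries. The part of such cells in the values of Id3, Tcf4 and the targets was not tested.

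Upstream of the Id genes, BMP ligands signal through type I and type II receptors to Smad1 and Smad5, which bind Id promoters with Smad4. Of 25 BMP pathway genes, 15 were tested and 12 were higher in Mmrn1-high cells (80.0% called, against 61.2% of all genes), with a median log2 fold change of 0.83. None of the BMP ligands in the list passed the filter on low counts. The higher genes include inhibitors of the pathway, and their count was 10 to 12 in the alternatives. The 3 with the smallest p were Eng, an accessory receptor that is also an endothelial and stem cell surface protein (94.7 ± 3.12 CPM, against 46.3 ± 2.77 CPM; 1.03 ± 0.05 SE), the feedback inhibitor Smad7 (1.41 ± 0.10 SE) and the type II receptor Bmpr2 (0.83 ± 0.06 SE). The type I receptor Bmpr1a (0.14 ± 0.11 SE), the decoy receptor Bambi (−0.13 ± 0.09 SE) and Smad5 missed the threshold, Smad5 with a wide spread (96.0 ± 44.0 CPM, against 78.6 ± 23.0 CPM). Of 10 TGF-beta genes, 8 were tested, with 4 higher, Tgfbr2 (0.97 ± 0.05 SE), Tgfbr3 (1.17 ± 0.08 SE), Smad3 (0.55 ± 0.04 SE) and the corepressor Ski (0.36 ± 0.05 SE), and 1 lower, the ligand Tgfb1 (−0.22 ± 0.03 SE).

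Other regulators reported for Id promoters included the immediate early factor Egr1, which induces Id3 in lymphocytes, and Gfi1, which represses Id1 and Id2 in mouse blood cells. Of 14 such genes, 11 were tested, with 7 higher and 2 lower in Mmrn1-high cells (81.8% called, against 61.2% of all genes) and a median of 0.56. Egr1 was at 209 ± 3.86 CPM in Mmrn1-high and 26.2 ± 1.78 CPM in Mmrn1-low cells (log2 fold change 3.00 ± 0.05 SE), and Atf3 (2.79 ± 0.14 SE) and Stat5b (0.56 ± 0.03 SE) were also higher. Gfi1 (57.9 ± 2.70 CPM, against 240.5 ± 7.17 CPM), which is also in the list of lymphoid targets, and Hif1a (−0.85 ± 0.04 SE) were lower. Of 12 genes reported to act on the stability of Id or E proteins, 10 were tested and 9 were lower in Mmrn1-high cells (90.0% called, against 61.2% of all genes in either direction and 30.5% lower), with a median of −0.30. The 3 with the smallest p, Cdc20 (−1.37 ± 0.05 SE), Cks1b (−0.83 ± 0.03 SE) and Fzr1 (−0.68 ± 0.06 SE), are also cell cycle genes. The list was not split by whether a gene stabilises or destabilises these proteins, so its direction gives no direction of protein stability. Usp1, a deubiquitinase reported to stabilise Id proteins, was lower by a smaller amount (193 ± 2.36 CPM, against 221 ± 7.23 CPM; −0.20 ± 0.03 SE). Its call was lost in 4 of 17 alternatives, namely library size alone and the FPKM settings. With library size alone that list had 5 lower and 1 higher, and 5 was its lowest count of lower genes in the alternatives. Protein levels were not measured.

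**Figure D5:**
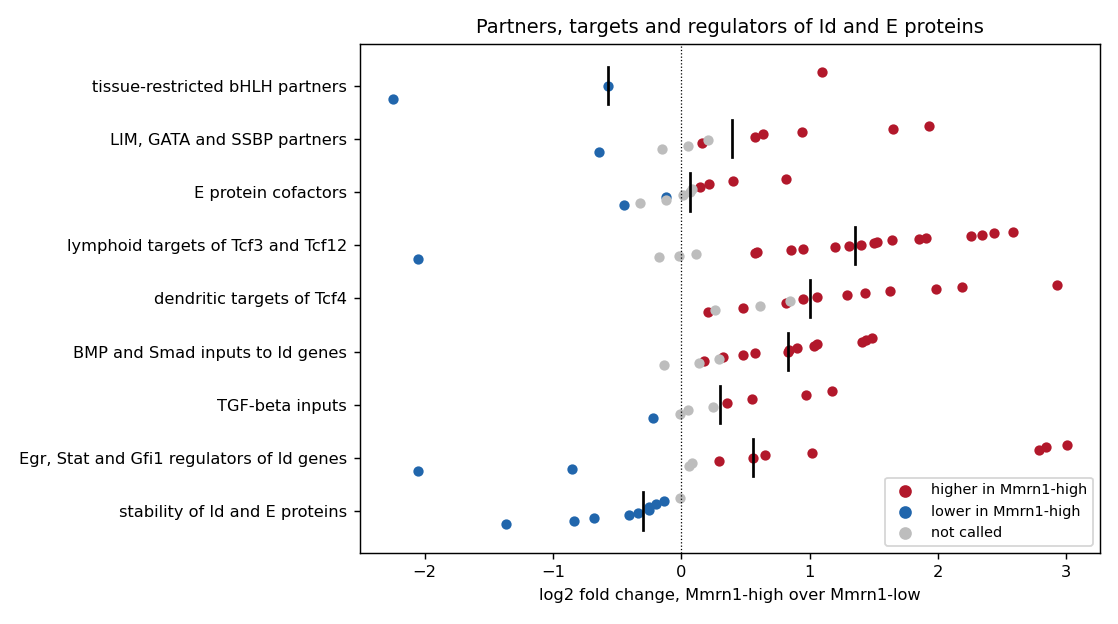
Log2 fold change, Mmrn1-high over Mmrn1-low (horizontal axis), of every tested gene in 9 lists of partners, targets and regulators; red points were called higher, blue points lower and grey points missed the threshold, and black bars are medians. The target and BMP lists lie mostly to the right of 0, and the stability list to the left.

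The genes whose profiles over the 6 libraries were closest to each member were found by the Euclidean distance of log2 CPM, each gene centred on its mean, among genes at or above the median level. For Tcf4 they were Ablim1 (distance 0.23) and Rab11fip5 (0.23). For Tcf12 they were Alcam (0.094) and Rps15a-ps7 (0.17), a pseudogene whose reads may belong to Rps15a, and for Tcf3 Btbd2 (0.047). For Id1 they were Ly6a2 (0.070) and Dnajc7 (0.14), and for Id2 Aven (0.048) and Cyth2 (0.058). For Id3 the closest, Gimap6 (0.92) and H2-Ob (0.98), were farther. Id3 lies well below the level required of the compared genes, so no gene of its own level was among them. Its low counts also make its profile less exact. The 6 libraries fall in 2 groups, so such a distance depends largely on the fold change.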

How the data were processed

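Libraries were made from poly-A RNA with a stranded paired-end kit and sequenced on an Illumina NovaSeq, per the labels' protocols. Per the submitters' processing notes, the tools were HISAT2, StringTie, edgeR and CASAVA 1.8 and the build was GRCm38, with no roles stated. The sources used here give no strand setting for the counting. The authors deposited raw counts and FPKM per Ensembl gene. Among 11388 genes with at least 200 counts in a library, the length behind the deposited FPKM equalled the summed distinct exons of GENCODE M21 to within 0.1% for 97.6%. No member shared exon bases with another annotated gene. The test on counts was that of edgeR 4.0.16, run in R 4.3.3 (quasi-likelihood F test, robust, TMM, filterByExpr, group as the only term), with Benjamini-Hochberg adjustment over 15419 genes and calls under 0.05. SE is the absolute log2 fold change over the square root of F. Alternatives used limma 3.58.1, DESeq2 1.42.0, FPKM with pseudocounts of 1 and 0.1, and other filters, scalings and subsets. In a simulation over 15222 genes, the test recovered 3 of 50 changes of 1.25-fold, 30 of 50 of 1.5-fold, 47 of 50 of 2-fold and 50 of 50 of 4-fold, and made 18 false calls. The simulation gave every gene the same dispersion and changed only 50 genes at each fold, while 61.2% of genes were called in the data. Its recovery rates therefore do not carry over to the genes of these data. Genes named are all members, up to 3 per list and direction with the smallest p, any in a count of 5 or fewer, Mmrn1, Id4 and the 2 closest profiles per member, 1 of which is not reported here. Usp1, Siglech, Bst2, Ccr9, Pacsin1, Tlr9, Cdh5, Pecam1, Ighm, Flt3, Cd48, Slamf1, Kit, Ly6a, Hlf and Hoxb5 were named after values had been seen. The members and lists were chosen with earlier results of these data known.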

Additional observations from a re-analysis of the deposited data

How the results depend on the processing

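Counts of 4 members higher became 3 to 5 in the alternatives. The Id1 value, never called, turned above 0 with library size alone (0.12), the filter of 5 CPM (0.0248), log2(FPKM + 1) with (0.11) and without (0.11) a filter and log2(FPKM + 0.1) (0.13), and ran from −0.13 to 0.10 with a library left out. Id2 was also called on FPKM (0.20 to 0.23). The Id to E ratio, a log2 difference of −0.14 (−0.17 to −0.11 with a library left out), was −0.32 for counts, −0.39 per median coding transcript, a length chosen after seeing the data, and 0.39 for geometric means. The FPKM order held for 9 of 15 pairs of members in Mmrn1-high cells per median coding transcript. Pathway genes called lower were 17, and 11 with FPKM and no filter. Deviations from the group mean were no more alike in same-numbered libraries (r = 0.043, −0.079 and 0.029) than in differently numbered ones (−0.093 to 0.072). With 3 libraries per group, such a correlation over all genes cannot exclude a shared animal or preparation. With a replicate block 8923 genes were called in place of 9438, and 4 members remained called higher. A filter of 5 CPM removes Id3. At an adjusted p under 0.01, Tcf12 is not called. The counts of Id3 in Mmrn1-low libraries, 4 to 11, limit its fold.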
